A study of Mus musculus with 12 samples.

Results

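The 37 genes described here encode subunits of respiratory complex I. They are all the genes whose symbol is Nduf followed by a, ab, b, c, s or v and a number, which leaves out assembly factors and pseudogenes, and they were chosen by name and not by their values. The table held 25162 genes with usable values, and all 37 were among the 10110 genes compared, those whose mean over the columns reached 1 FPKM. Each had a single line and none was listed at 0, the lowest value being 0.654 FPKM. RNA was measured in mouse oocytes that had lost Rnaseh1 by deletion in the oocyte (labelled KO, with the column heading oo-/-) and in floxed controls (WT, headed Rnaseh1 fl/fl), each at the stages NGO, GO and FGO. In this field NGO is used for the non-growing oocyte of the primordial follicle, GO for the growing oocyte and FGO for the oocyte at full size. Rnaseh1 encodes RNase H1, the nuclease that degrades RNA in RNA-DNA hybrids. The sources used here do not name the driver of the deletion, the strain or the age of the mice.

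The labels name 12 samples of 10 oocytes, 2 for each genotype and stage, but the values come in 6 columns, 1 for each genotype and stage. Replicates could therefore not be compared, and differences come without SD, n or test. A gene is called higher or lower where log2(FPKM + 1) differed by 1 or more between KO and WT, which is 2-fold. Levels are given as FPKM, which the authors adjusted to an added spike-in RNA, and the read depth behind them is unknown. Rnaseh1 itself was at 0.931, 3.10 and 8.02 FPKM in KO at NGO, GO and FGO, against 8.61, 27.8 and 29.1 FPKM in WT. All 10 oocyte markers were at 1 FPKM or more in every column. Of the 10 granulosa cell markers, 1, 0 and 6 reached 1 FPKM in KO at NGO, GO and FGO, against 0, 1 and 3 in WT. Their summed level was 3.99, 2.46 and 36.7 FPKM in KO, against 1.64, 4.39 and 12.4 FPKM in WT. The highest of them at FGO were Cyp19a1, Inha and Gja1, at 10.4, 9.32 and 6.96 FPKM in KO, against 6.16, 1.17 and 0.965 FPKM in WT. The lowest of them at FGO were Foxl2 and Amh, at 0 and 0.282 FPKM in KO, against 0.0130 and 0.0206 FPKM in WT. The markers' part in the results below was not tested. Whether a lower value reflects less RNA per oocyte or fewer oocytes recovered cannot be told apart.

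Complex I is the entry point of the mitochondrial respiratory chain: it takes electrons from NADH, passes them along iron-sulfur clusters to ubiquinone and pumps protons across the inner membrane. Its core subunits carry the cofactors and the pump, and are encoded partly in the nucleus and partly in mitochondrial DNA, while the accessory subunits around them are all nuclear and are needed for assembly and stability. The enzyme has an arm in the matrix, with an NADH-binding N module and a ubiquinone-binding Q module, and an arm in the membrane with proximal and distal parts. Oocytes carry the mitochondria that the embryo inherits, and early oocytes of humans and Xenopus are known for keeping complex I very low. The subunits encoded in mitochondrial DNA were not analysed here.

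In KO oocytes, transcripts of most complex I accessory subunits lay below WT relative to other genes at GO and FGO. So did the core subunits Ndufs3, Ndufs7 and Ndufv2, while the catalytic core subunits Ndufv1 and Ndufs1 lay above WT at every stage. The core subunit Ndufs8 lay below WT on this measure at FGO, and at GO it was near the typical gene, at -0.02. As deposited, the 37 genes had median KO minus WT differences of -0.32, -0.47 and 0.21 on the log2 scale at the stages NGO, GO and FGO, beside -0.11, -0.09 and 0.72 over all genes compared. At FGO most genes therefore lay above WT, 9649 of the 10110 compared. For that reason each difference is also given after rescaling, in which a single factor per column brings the typical gene to the same level in all 6 columns, so that a value tells where a gene lay relative to the others. After rescaling the medians of the 37 genes were -0.16, -0.40 and -0.53, beside 0.01, -0.03 and 0.02 over all genes. Below 0 lay 24, 30 and 34 of the 37 genes after rescaling, and 29, 30 and 9 as deposited. As deposited, the median over all genes compared was below 0 at NGO and GO too. Matching counts over all genes after rescaling, and at NGO and GO as deposited, are not given here. At FGO the direction of the group thus depended on the scale.

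Few single genes reached 2-fold. At NGO none of the 37 did on either scale, where 0.0297% of all genes compared were 2-fold higher and 0.326% lower as deposited, and 0.129% and 0.356% after rescaling. At GO, Ndufc1 was lower on both scales and no member was higher. The background at GO was 0.95% higher and 2.03% lower as deposited, and 1.05% and 1.28% after rescaling. At FGO as deposited, Ndufv1 and Ndufs1 were higher and none was lower, beside 25.8% of all genes higher and 0.158% lower. After rescaling, Ndufs5 and Ndufa2 were lower at FGO and none was higher, beside 1.68% higher and 0.94% lower over all genes. A count of 2 in 37 higher at FGO is thus below the background share as deposited.

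**Figure D1:**
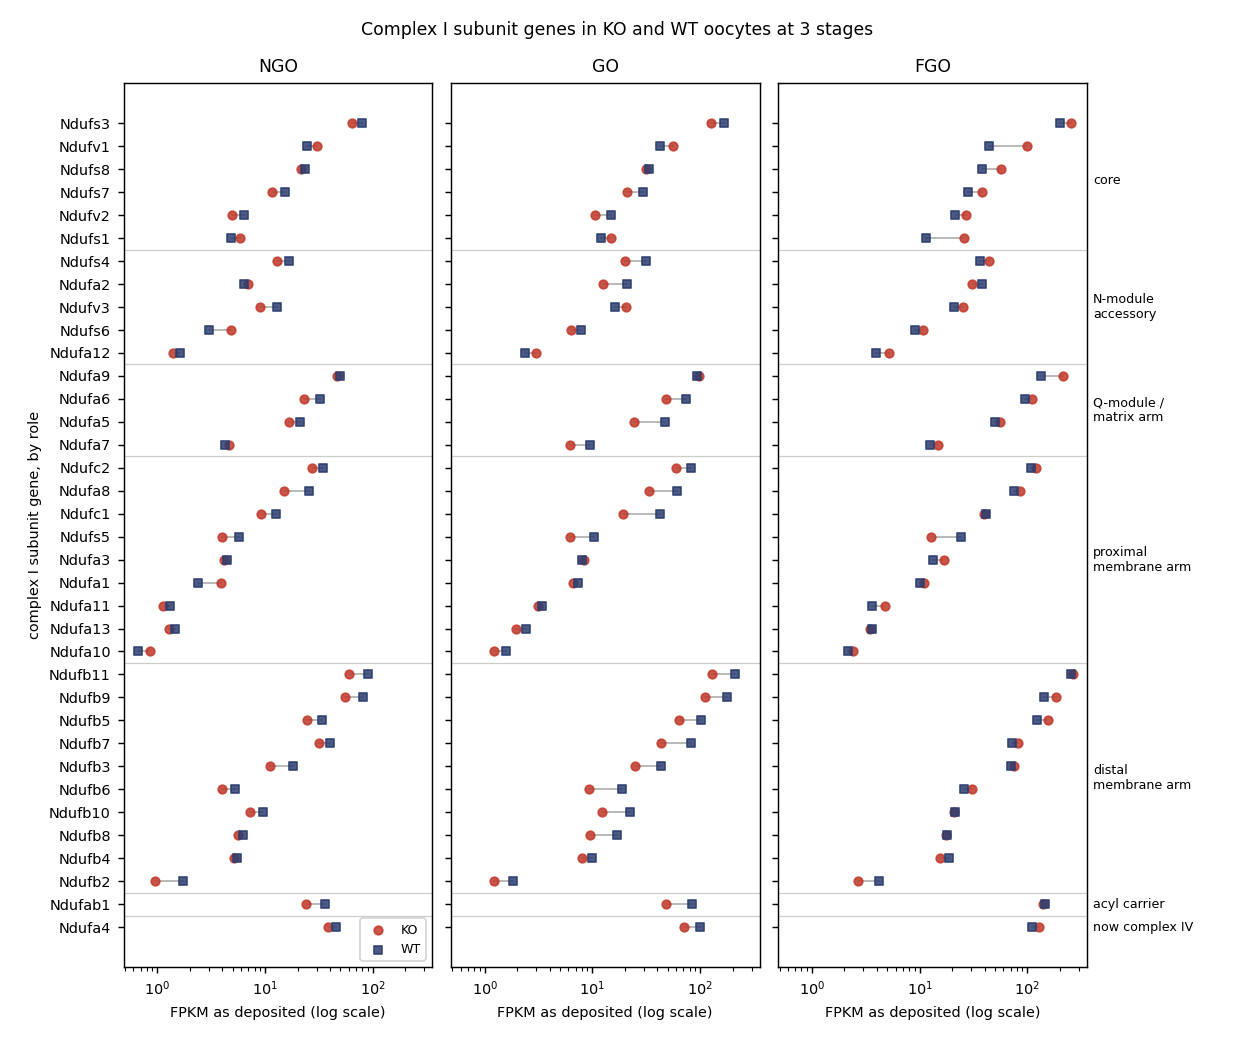
FPKM as deposited (horizontal axis, log scale) of 36 of the genes (rows, grouped by role) at NGO, GO and FGO; circles are KO and squares WT, 1 column each with no replicate and so no error bar. At GO the circles of all 10 distal membrane-arm genes lie left of their squares, and at FGO Ndufv1 and Ndufs1 show circles far to the right.

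Levels within the group spanned a wide range, and the same genes lay at its ends in every column. Ndufa10 was the lowest in all 6 columns, and the ratio of the highest to the lowest gene was 73.8, 105 and 109 in KO at NGO, GO and FGO, against 138, 133 and 117 in WT. Ndufb11, Ndufb9 and Ndufs3 were among the 5 highest in every column, and Ndufa10, Ndufa11, Ndufa12, Ndufa13 and Ndufb2 were the 5 lowest and stayed under 10 FPKM. The summed level of the 37 genes was 618, 1204 and 2504 FPKM in KO, against 780.0, 1719.8 and 2073 FPKM in WT. Of every 1000 FPKM in the column they held 4.68, 3.39 and 3.43 in KO, against 4.97, 4.47 and 4.50 in WT. This share, which does not depend on any factor common to a column, was 0.940, 0.757 and 0.763 times that of WT.

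The 7 nuclear core subunits make up the electron path of the matrix arm. Ndufv1, which binds NADH and the flavin that receives its electrons (chr19:4007499-4012755, GRCm38.p6), was at 30.3, 55.8 and 99.6 FPKM in KO at NGO, GO and FGO, against 24.7, 42.0 and 44.3 FPKM in WT. Its difference was 0.29, 0.40 and 1.15 as deposited, and 0.47, 0.47 and 0.37 after rescaling. KO was above WT at all 3 stages on both scales, and at FGO the difference reached 2-fold only as deposited. Ndufs1, the largest core subunit, with several iron-sulfur clusters (chr1:63143592-63176822), was at 5.82, 15.0 and 25.6 FPKM in KO, against 4.86, 12.1 and 11.5 FPKM in WT. Its difference was 0.22, 0.29 and 1.09 as deposited, and 0.41, 0.36 and 0.33 after rescaling, so its KO value was also above WT throughout.

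The core genes Ndufs3, Ndufs7, Ndufv2 and Ndufs8 were not above WT at every stage on either scale. Ndufs3, a structural subunit of the Q module, was at 63.6, 125 and 252 FPKM in KO, against 79.8, 167 and 199 FPKM in WT. Ndufs7, which holds the last iron-sulfur cluster before ubiquinone, was at 11.6, 21.1 and 37.6 FPKM in KO, against 15.3, 29.4 and 28.4 FPKM in WT. Ndufv2, the partner of Ndufv1 with an iron-sulfur cluster of its own, was at 4.90, 10.7 and 26.7 FPKM in KO, against 6.36, 14.9 and 21.3 FPKM in WT. All 3 showed KO below WT at NGO and GO and above it at FGO as deposited, and below WT at every stage after rescaling. Ndufs8, which carries iron-sulfur clusters between the N module and the ubiquinone site, was at 21.3, 31.6 and 57.4 FPKM in KO, against 23.5, 33.8 and 38.2 FPKM in WT. Its rescaled difference was 0.04, -0.02 and -0.20.

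Summed together, the core genes thus took a larger part of the complex I message in KO. Not every core gene lay above WT, since Ndufs3, Ndufs7 and Ndufv2 lay below it at every stage after rescaling. The core genes together held 25.6%, 24.5% and 23.2% of the summed level of the 37 genes in KO at NGO, GO and FGO, against 21.8%, 19.1% and 18.5% in WT. The sum of core over the sum of accessory transcripts was 0.374, 0.353 and 0.323 in KO, against 0.301, 0.255 and 0.243 in WT. Ndufv1 and Ndufs1, named together because of their values, held 5.85%, 5.88% and 4.999% in KO, against 3.79%, 3.15% and 2.69% in WT. As ratios within a column these values carry no scaling. The core share of all FPKM was 1.19, 0.830 and 0.795 per 1000 in KO, against 1.09, 0.857 and 0.832 in WT, a smaller gap than that of the accessory genes. The 29 accessory subunits held 3.19, 2.36 and 2.46 per 1000 in KO, against 3.60, 3.36 and 3.42 in WT, which is 0.887, 0.701 and 0.719 times the WT share.

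**Figure D2:**
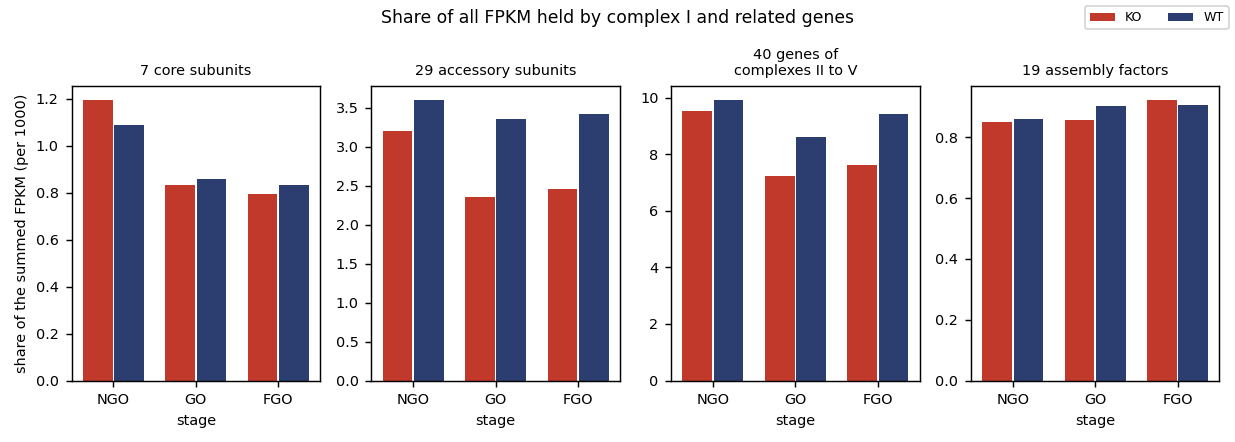
Share of each column's summed FPKM (vertical axis, per 1000, from 0) held by 4 gene lists at NGO, GO and FGO; red bars are KO and blue bars WT, 1 column each with no replicate and so no error bar. At GO the core genes are at 0.830 in KO and 0.857 in WT, while the accessory genes are at 2.36 in KO and 3.36 in WT.

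In the matrix arm, the 5 accessory genes of the N module had median rescaled differences of -0.04, -0.20 and -0.47 at NGO, GO and FGO. Ndufa2, a small thioredoxin-fold subunit of that module, was at 6.93, 12.6 and 30.9 FPKM in KO, against 6.37, 21.1 and 38.3 FPKM in WT. Its rescaled difference was 0.28, -0.62 and -1.05, and -0.30 as deposited at FGO, so it was lower by 2-fold at FGO after rescaling only. Ndufv3, which sits beside the flavoprotein, was at 8.96, 20.5 and 25.5 FPKM in KO, against 12.9, 16.1 and 21.0 FPKM in WT. At GO its rescaled difference of 0.39 was among the 3 highest of the group, and at FGO it was -0.47. Ndufs6, which binds zinc and is needed to complete the N module, was at 4.82, 6.30 and 10.8 FPKM in KO, against 3.02, 7.83 and 9.08 FPKM in WT. The other 2 N-module genes, Ndufs4 and Ndufa12, had rescaled differences between -0.55 and 0.27. Loss of Ndufs4 causes a Leigh-like disease in mice and humans, and its values were 12.9, 20.2 and 44.3 FPKM in KO, against 16.8, 31.8 and 36.5 FPKM in WT.

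The 4 accessory genes of the Q module and its surroundings had median rescaled differences of -0.04, -0.50 and -0.54. Ndufa5, a matrix-arm subunit of the Q module, was at 16.6, 24.4 and 55.4 FPKM in KO, against 21.2, 46.7 and 49.8 FPKM in WT. Its difference at GO was -0.91 as deposited and -0.83 after rescaling, close to 2-fold and among the lowest of the group. Ndufa9, which binds NADPH near the junction of the arms, stood apart, at 46.3, 98.4 and 214 FPKM in KO, against 49.7, 94.0 and 133 FPKM in WT. Its rescaled differences of 0.08, 0.14 and -0.10 were the nearest to 0 in this module at every stage. Ndufa6, a partner of the acyl carrier protein, and Ndufa7 had -0.52 and -0.48 at GO and -0.59 and -0.50 at FGO. Ndufab1, the mitochondrial acyl carrier protein that also serves fatty acid and iron-sulfur cluster synthesis, was at 23.8, 47.8 and 138 FPKM in KO, against 35.7, 84.1 and 146 FPKM in WT. It was below WT at all 3 stages on both scales, with rescaled differences of -0.40, -0.73 and -0.86.

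The 9 accessory genes of the proximal membrane arm had median rescaled differences of -0.01, -0.15 and -0.57, and among them were the members with the lowest values at GO and at FGO. Ndufc1, a small single-span membrane subunit (chr3:51405479-51408955), was at 9.14, 19.3 and 39.9 FPKM in KO, against 12.5, 42.7 and 40.9 FPKM in WT. Its difference was -0.42, -1.11 and -0.04 as deposited and -0.26, -1.02 and -0.79 after rescaling, so it fell past 2-fold at GO on both scales. Ndufs5, a subunit on the intermembrane-space side (chr4:123712710-123718186), was at 3.98, 6.20 and 12.8 FPKM in KO, against 5.73, 10.4 and 24.3 FPKM in WT. Its difference was -0.44, -0.66 and -0.87 as deposited and -0.31, -0.57 and -1.56 after rescaling, the lowest of all members at FGO on both scales. Reads of Ndufs5 may be shared with a near-identical copy, since an annotated copy matches it at 99.4% identity over 53.3% of the transcript. The pseudogene Ndufs5-ps had 2 lines, and the first was at 0.265, 0.258 and 0.309 FPKM in KO, against 9.10, 13.8 and 1.47 FPKM in WT. No source used here says how such reads were split in counting, so the Ndufs5 values are uncertain. Ndufa1, an X-linked membrane subunit, was at 3.86, 6.61 and 11.1 FPKM in KO, against 2.39, 7.36 and 10.1 FPKM in WT. At NGO its rescaled difference of 0.75 was, with 0.76 for Ndufs6, the highest of the group. Ndufa13, also known as GRIM-19, was at 1.27, 1.95 and 3.46 FPKM in KO, against 1.45, 2.40 and 3.62 FPKM in WT. Ndufa10, with a nucleoside kinase fold, was the least abundant, at 0.862, 1.22 and 2.41 FPKM in KO, against 0.654, 1.57 and 2.18 FPKM in WT. Values this low are compressed by the pseudocount of 1. The other 4 proximal genes, Ndufa3, Ndufa8, Ndufa11 and Ndufc2, had rescaled differences between -0.78 for Ndufa8 and 0.13 for Ndufa3 at GO, and between -0.64 and -0.27 at FGO.

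All 10 accessory genes of the distal membrane arm lay below WT at GO on both scales, with medians of -0.73 as deposited and -0.65 after rescaling, beside -0.41 and -0.25 at NGO and 0.07 and -0.70 at FGO. Ndufb11, an X-linked subunit and the most abundant member on average, was at 60.4, 128 and 264 FPKM in KO, against 90.3, 209 and 254 FPKM in WT. Ndufb9, which holds an acyl carrier protein at the end of the arm, was at 55.6, 110.2 and 185 FPKM in KO, against 81.2, 179 and 141 FPKM in WT. Both were below WT at NGO and GO and above it at FGO as deposited, and below it at all stages after rescaling. Ndufb6, a single-span membrane subunit, was at 3.98, 9.39 and 30.6 FPKM in KO, against 5.26, 18.6 and 26.0 FPKM in WT, with a difference of -0.92 at GO. Exons of Smim27 on the opposite strand overlap 39.0% of its transcript, and Smim27 was at 0.804, 0.890 and 2.38 FPKM in KO, against 0.232, 6.41 and 0.966 FPKM in WT. The reads of such overlapping genes cannot be told apart without strand. Ndufb7, of the intermembrane-space side, was at 31.3, 43.5 and 81.1 FPKM in KO, against 39.9, 82.0 and 72.0 FPKM in WT. Ndufb4 was at 5.12, 7.98 and 15.4 FPKM in KO, against 5.51, 10.0 and 18.6 FPKM in WT, and was the third lowest at FGO after rescaling, at -0.96. Ndufb2, among the least abundant, was at 0.950, 1.23 and 2.70 FPKM in KO, against 1.72, 1.83 and 4.17 FPKM in WT, below WT at every stage. The other 4 distal genes, Ndufb3, Ndufb5, Ndufb8 and Ndufb10, had rescaled differences of -0.74 to -0.58 at GO and -0.76 to -0.43 at FGO. Ndufa4, first named as a complex I subunit and now placed in complex IV, was at 38.0, 71.0 and 129 FPKM in KO, against 45.2, 99.0 and 111 FPKM in WT. As deposited it lay below WT at NGO and GO and above it at FGO, and after rescaling it lay below WT at all 3 stages, with -0.57 at FGO.

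**Figure D3:**
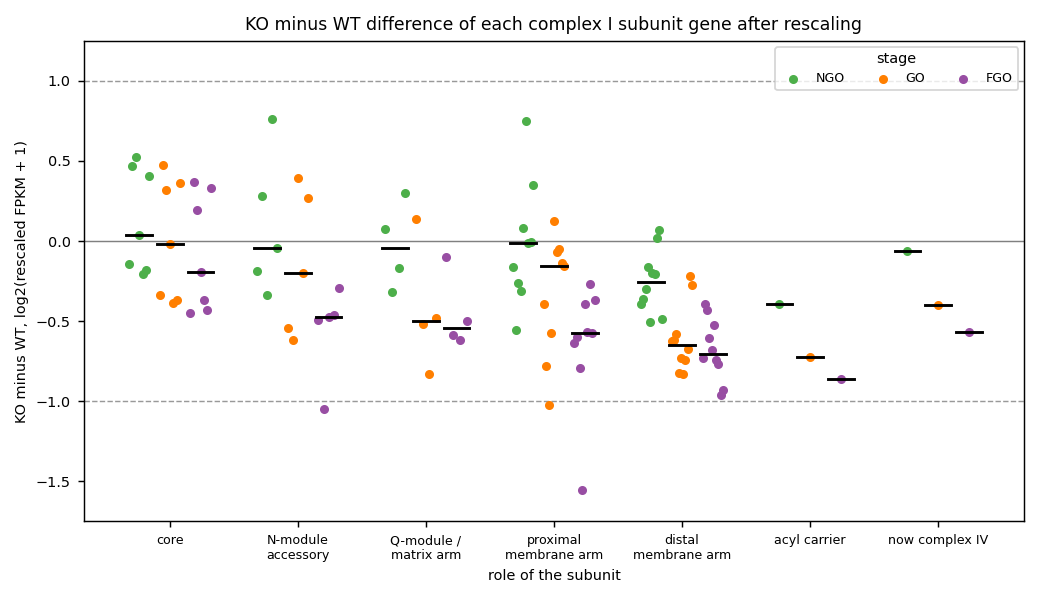
KO minus WT difference on the log2(rescaled FPKM + 1) scale (vertical axis) for each of the 37 genes, by role (horizontal axis) and stage (colour: NGO, GO, FGO); points are genes, bars are medians and dashed lines mark 2-fold, with no error since each genotype and stage has 1 column. At FGO every accessory gene lies below 0, while core genes lie on both sides of it.

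Across the 3 stages, 22 of the 37 genes were below WT at each stage after rescaling. Ndufv1 and Ndufs1 were above WT at each stage. All 29 accessory genes had rescaled differences below 0 at FGO, with a median of -0.59, beside medians of -0.17 at NGO and -0.55 at GO. As deposited, 8 genes were below WT throughout, namely Ndufa13, Ndufab1, Ndufb10, Ndufb2, Ndufb4, Ndufb8, Ndufc1 and Ndufs5. Another 21 were below WT at GO and above it at FGO. Matching counts over all genes compared are not given here. As deposited, the median of all genes compared also lay below WT at GO and above it at FGO. After rescaling, the median of all genes with coding sequences under 500 nt lay below WT at every stage. Exons of another gene overlapped those of 15 members, 4 members have a near-identical copy, and 21 have neither. Those with a copy are Ndufb11, Ndufs3, Ndufs5 and Ndufs6. Overlaps on the same strand cover 31.9% of Ndufb2, 19.7% of Ndufb8 and 28.6% of Ndufb9. How reads were split in counting is unknown for these genes too.

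The promoters of the members 2-fold apart between KO and WT are shown because the data differ there and the windows were searched for motifs of regulators known for respiratory genes. They are taken from RefSeq on GRCm38.p6, all on the minus strand and written 5′ to 3′, from 250 bases before to 50 after the annotated start, with capitals marking the only motif match found in them. They are chr3:51408906-51409205 for Ndufc1, chr4:123718137-123718436 for Ndufs5 and chr19:4012706-4013005 for Ndufv1.
Ndufc1: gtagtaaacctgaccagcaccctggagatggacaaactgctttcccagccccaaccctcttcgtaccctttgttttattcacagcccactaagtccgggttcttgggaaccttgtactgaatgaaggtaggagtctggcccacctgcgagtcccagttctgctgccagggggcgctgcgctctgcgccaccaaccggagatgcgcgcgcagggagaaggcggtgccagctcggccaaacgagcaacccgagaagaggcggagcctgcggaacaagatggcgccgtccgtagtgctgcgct
Ndufs5: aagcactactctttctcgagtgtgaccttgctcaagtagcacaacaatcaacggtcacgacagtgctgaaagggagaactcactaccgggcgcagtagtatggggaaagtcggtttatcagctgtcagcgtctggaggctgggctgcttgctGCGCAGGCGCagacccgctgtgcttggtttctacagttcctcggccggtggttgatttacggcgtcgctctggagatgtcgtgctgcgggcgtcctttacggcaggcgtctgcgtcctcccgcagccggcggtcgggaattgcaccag
Ndufv1: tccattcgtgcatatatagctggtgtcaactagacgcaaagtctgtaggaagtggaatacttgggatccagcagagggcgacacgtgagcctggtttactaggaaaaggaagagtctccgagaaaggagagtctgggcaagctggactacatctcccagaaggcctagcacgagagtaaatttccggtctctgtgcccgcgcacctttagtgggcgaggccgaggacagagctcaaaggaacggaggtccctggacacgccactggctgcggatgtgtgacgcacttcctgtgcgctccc
The capitals in Ndufs5 are a match of NRF1, searched as GCGCA, any base and GCGC. The other motifs were CCGGAAG for ETS factors such as GABPA, GGGCGGG for Sp factors, TGACGTCA for CRE-binding factors, and for YY1 AA, any base and ATGGCGGC, all on both strands. Of the 37 genes, 33 had a window, and Ndufa2, Ndufb9 and Ndufs1 are among those without. The NRF1 motif was in 21.2% of the members' windows, beside 4.78% of all 27025 windows and 11.9% of those of the genes compared. YY1 was in 12.1%, namely Ndufa9, Ndufs4, Ndufs6 and Ndufs7, beside 1.07% and 2.84%. The CRE was in 9.09%, beside 1.88% and 3.55%. ETS was in 12.1%, beside 9.12% and 20.3%, and Sp in 36.4%, beside 25.8% and 47.9%. The shares with NRF1, YY1 and CRE motifs were thus above both backgrounds, and those with ETS and Sp motifs were below that of the genes compared. The NRF1, YY1 and CRE shares rest on only 7, 4 and 3 of the 33 windows, and the differences were not tested. Any of the 5 was in 63.6% of the members' windows, close to the 65.0% of genes compared, and 34.1% of all windows. No member window held matches of different motifs that overlap. The share of CG pairs was alike too, with a median of 20 pairs per window in members and 21 in genes compared, against 7 in all windows. A match describes letters in the window and not a bound site.

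As deposited, the second growth step of the 37 genes had a larger median in KO than in WT, as had that of all genes compared. After rescaling the members' second step was smaller in KO than in WT. In KO every one of the 37 was higher at GO than at NGO and higher at FGO than at GO as deposited, and in WT 31 did so. The exceptions in WT, with FGO below GO, were Ndufb10, Ndufb7, Ndufb9, Ndufc1, Ndufs1 and Ndufs7. Matching counts over all genes compared are not given here, and the median of all genes also rose at each step as deposited. The median step GO minus NGO was 0.86 in KO and 1.10 in WT, and 11 genes in KO and 22 in WT rose at least 2-fold, beside 57.6% of all genes in KO and 54.8% in WT. The step FGO minus GO had a median of 0.93 in KO and 0.31 in WT, and 17 genes in KO and 1 in WT rose at least 2-fold, beside 39% and 6.5% of all genes. Over all genes the medians were 1.10 in KO and 1.06 in WT for the first step, and 0.84 in KO and 0.08 in WT for the second. The member that passed 2-fold in the second step in WT was Ndufs5, with 24.3 FPKM at FGO and 10.4 FPKM at GO. After rescaling the first step was -0.53 in KO and -0.16 in WT, and the second 0.12 in KO and 0.27 in WT. In WT the accessory genes had larger median steps than the core genes, 1.13 and 0.36 against 0.90 and 0.17 as deposited. The KO steps were 0.78 and 0.94 for accessory genes and 0.86 and 0.84 for core genes.

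**Figure D4:**
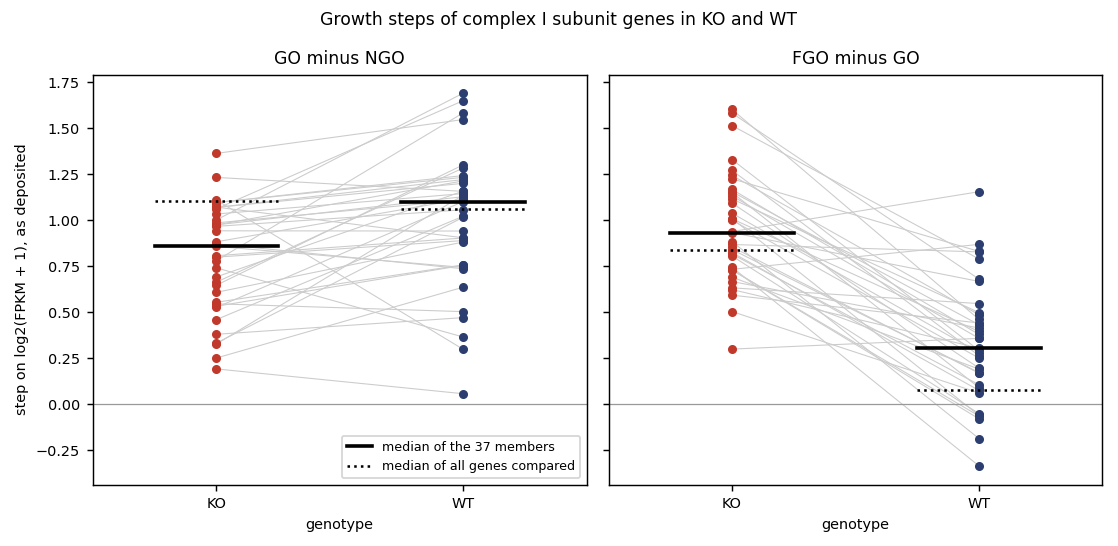
Step between stages on the log2(FPKM + 1) scale as deposited (vertical axis) for each of the 37 genes in KO and WT (horizontal axis), GO minus NGO on the left and FGO minus GO on the right; grey lines join a gene, solid bars are medians of the members and dotted bars medians of all genes compared, with no replicate. For FGO minus GO the members sit at a median of 0.93 in KO and 0.31 in WT.

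At GO and FGO, the KO minus WT differences of the members moved with the length of the coding sequence. The 6 members of at least 1000 nt, among them Ndufv1 and Ndufs1, had median rescaled differences of 0.38, 0.34 and 0.05 at NGO, GO and FGO, beside 0.06, 0.05 and 0.07 over all genes of that class. The 10 members from 500 nt to under 1000 nt had -0.20, -0.56 and -0.44, beside -0.07, -0.10 and -0.01. The 21 members under 500 nt had -0.16, -0.48 and -0.60, beside -0.18, -0.33 and -0.29 over all genes of that class. Short genes as a whole were thus below 0 at every stage, and in both classes under 1000 nt the members lay further below 0 than all genes at GO and FGO. Across the 37 genes, Spearman's rho of the rescaled difference with coding length was 0.08, 0.40 and 0.60, and 0.27, 0.22 and 0.10 across 9637 genes compared. Without Ndufv1 and Ndufs1 it was -0.04, 0.29 and 0.53 over 35 genes. These points share the same columns and genes are not independent replicates, so the values describe these columns. The part of length in the differences was not tested.

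**Figure D5:**
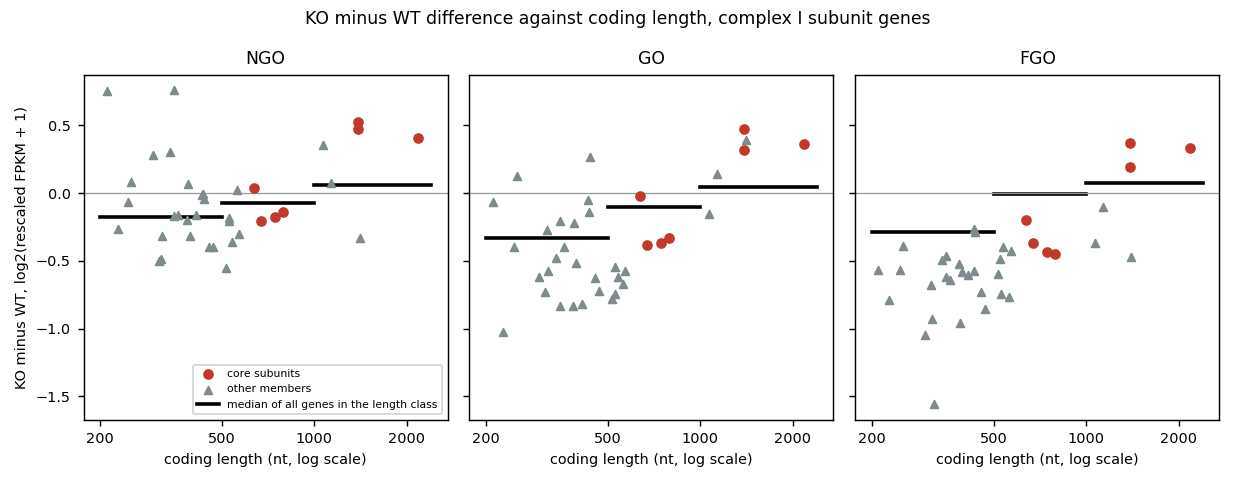
KO minus WT difference on the log2(rescaled FPKM + 1) scale (vertical axis) against coding length (horizontal axis, nt, log scale) for the 37 genes at NGO, GO and FGO; red circles are core subunits, grey triangles the others and black bars the median of all genes of a length class, with 1 column per genotype and stage. Nearly all members under 1000 nt lie below 0 at GO and FGO, and Ndufv1 and Ndufs1, of at least 1000 nt, lie above it.

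Genes that act with complex I were described the same way. The 19 assembly factors, which build the arms and are absent from the finished enzyme, had 18 members compared and median rescaled differences of -0.19, -0.21 and -0.13 at NGO, GO and FGO. Their share of all FPKM was 0.852, 0.856 and 0.924 per 1000 in KO, against 0.860, 0.903 and 0.907 in WT, so the complex I subunit total over the assembly factor total was 5.49, 3.95 and 3.72 in KO, against 5.78, 4.95 and 4.96 in WT. As deposited 1 factor was 2-fold lower at GO, beside 2.03% of all genes, namely Ndufaf8, at 3.76, 3.55 and 17.4 FPKM in KO, against 5.46, 8.65 and 18.6 FPKM in WT. At FGO 5 were 2-fold higher as deposited, where 25.8% of all genes were. They include Ndufaf1, which works in building the membrane arm, at 0.987, 2.78 and 2.81 FPKM in KO, against 0.523, 2.02 and 0.356 FPKM in WT. Tmem126a, a factor of the membrane arm, was at 0.490, 1.32 and 1.23 FPKM in KO, against 0.483, 1.17 and 2.95 FPKM in WT, and was the only one of the 18 that was 2-fold lower at FGO after rescaling, beside 0.94% of all genes.

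The 40 genes of complexes II to V, which carry the electrons onward and make ATP, had median rescaled differences of -0.09, -0.44 and -0.48, beside the -0.16, -0.40 and -0.53 of complex I. The total of complex I over that of complexes II to V was 0.490, 0.467 and 0.451 in KO, against 0.501, 0.520 and 0.477 in WT. At GO after rescaling 4 of the 40 were 2-fold lower and none higher, beside 1.28% and 1.05% of all genes. At FGO after rescaling 7 were lower and 1 higher, beside 0.94% and 1.68%. As deposited the balance at FGO turned round, with 1 lower and 4 higher, beside 0.158% and 25.8%, and a median of 0.30. The gene that was higher after rescaling was Uqcrc1, a large core protein of complex III, at 36.3, 81.4 and 46.0 FPKM in KO, against 30.1, 51.6 and 8.94 FPKM in WT. Atp5k, a small subunit of ATP synthase, was at 15.6, 22.6 and 35.6 FPKM in KO, against 12.3, 42.3 and 93.9 FPKM in WT. Cox7c, a small subunit of complex IV, was at 9.49, 14.3 and 40.5 FPKM in KO, against 6.86, 36.3 and 69.4 FPKM in WT. As in complex I, catalytic subunits with long coding sequences were among those above WT. Sdha of complex II, chosen after its values were seen, was at 30.7, 77.3 and 132 FPKM in KO, against 28.1, 48.8 and 53.0 FPKM in WT. Across 39 genes of these complexes rho with coding length was -0.08, 0.79 and 0.83.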

How the data were processed

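RNA of 12 samples of 10 mouse oocytes, 2 per genotype and stage, with 100 pg of ERCC spike-in, was read as 150 bp pairs from Smart-seq2 libraries according to the labels. The submitters' processing notes name HISAT2 2.2.1, Cufflinks 2.2.1 and Trim Galore 0.6.7, with mm10. The deposited table gives FPKM, adjusted by the authors to the spike-in, in 6 columns. No source used here gives the adjustment formula, the annotation or the relation of a column to its 2 samples.

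Of 25912 lines for 25164 symbols, 2 with spreadsheet errors were left out, and a symbol on several lines was represented by its line of largest mean. Genes averaging 1 FPKM or more were compared on log2(FPKM + 1). The planned fits per sample could not be run with 1 column per group. Rescaling divided each column by the median, over genes above 0 in all columns, of its ratio to the geometric mean of the columns, with factors of 0.453, 1.22 and 2.26 for KO and 0.514, 1.29 and 1.31 for WT at NGO, GO and FGO. Coding lengths and exon overlaps came from GENCODE M21, found for 95.3% of genes compared, and copies from blastn 2.17.0 at 95% identity over 50% of a transcript. The depth of each sample is unknown, so no interval or floor is given. Stage patterns compare values with no tolerance.

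The members, gene lists and naming rule were chosen with earlier results of these data known. The rule names the core subunits, members past 2-fold, the 3 highest and 3 lowest rescaled differences at GO and FGO, the 3 highest and 3 lowest means, and the 3 largest rescaled differences among assembly factors and among complexes II to V. Of the genes the rule names, 1 is not reported here, though sums and medians include it. Other genes are named as examples of their group. Alternatives were another pseudocount, other filters, median-ratio scaling, equal column totals, summed lines and a share without the 100 most abundant genes. The steps were tested on simulated data. Software was Python 3.11.15 with numpy 2.4.6, pandas 2.3.3, scipy 1.17.1 and matplotlib 3.10.9.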

Additional observations from a re-analysis of the deposited data

Results flagged for a closer look

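The KO minus WT difference of the complex I genes was not the same at all stages. As deposited its median over the 37 genes was 0.21 at FGO and -0.47 at GO, a shift of 0.68 on the log2 scale. Of the members, 21 lay below WT at GO and above it at FGO, and so did the median of all genes compared. After rescaling the shift was -0.13, and the medians were -0.53 at FGO and -0.40 at GO. With 1 column per genotype and stage the difference between stages was not tested.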

How the results depend on the processing

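No paired analysis was possible because the 6 value columns carry no replicate numbers and each group has a single column, so leaving out a replicate and the replicate block were not run. The scale decided most of what changed. With median-ratio scaling and with equal column totals, the median KO minus WT difference was -0.16 and -0.10 at NGO and, against 0.21 as deposited, -0.53 and -0.41 at FGO. At GO it was -0.36 with equal totals and -0.58 with a mean of at least 5 FPKM. With equal totals 0 genes were 2-fold lower at GO, where Ndufc1 was just short of it. At FGO 0 genes were higher under either scaling, and 2 and 1 were lower. The step GO minus NGO turned to -0.53 and -0.52 in KO and to -0.16 and -0.12 in WT. The step FGO minus GO was 0.12 and -0.021 in KO, and 0.11 in WT with equal totals. Single genes changed sign at NGO, GO and FGO in 5, 0 and 25 cases with median-ratio scaling and in 8, 1 and 24 with equal totals, and in 0 with a pseudocount of 0.1. Over the 21 genes with no overlap or copy, chosen after seeing the data, as was leaving out Ndufa4, 1 gene was higher at FGO. The share ratios without the 100 most abundant genes were 0.926, 0.759 and 0.741. With no replicates, a move of up to 0.1 on the log2 scale or 10% of a share was read as no change. Depth is unknown, so low genes such as Ndufa10 and Ndufb2 have an unknown counting error.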

Other observations

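The 12 enzymes that supply NADH to complex I are the pyruvate and oxoglutarate dehydrogenases and citric acid cycle enzymes. After rescaling, their median lay on the other side of WT from most complex I genes. Their median rescaled difference was 0.06, 0.22 and 0.15 at NGO, GO and FGO, and their share of all FPKM was 1.08, 1.16 and 1.14 times that of WT. Not all 12 followed the median: Mdh2 and Pdhx lay below WT at every stage after rescaling, and Cs and Idh3g did at FGO. All 12 have coding lengths of at least 1000 nt, a class whose median over all genes was also above WT after rescaling. As deposited, the medians were -0.11, 0.15 and 0.93, so at NGO and FGO most of these enzymes lay on the same side of WT as most complex I genes. As deposited, 4 of the 12 were 2-fold higher at FGO, beside 25.8% of all genes. Among regulators of respiratory genes, 9 of 12 were compared, with median rescaled differences of 0.01, -0.13 and 0.16. Nfe2l2 and Tfam were 2-fold higher at FGO as deposited, beside 25.8% of all genes. After rescaling neither was, with differences of 0.90 and 0.88.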
